A study of Mus musculus with 4 samples.

Results

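The 32 genes described here encode the machinery of autophagy and of mitophagy, the autophagy of mitochondria. They were taken as a given list of gene symbols, and all 32 had a value among the 13677 genes measured in mouse inguinal white adipose tissue, a fat depot under the skin. The study compared 2 RNA sequencing libraries labelled FLCNKO, from animals described as an adipose knockout of Flcn (folliculin, a tumour suppressor that acts with the mTOR pathway), with 2 wildtype (WT) libraries. Its title places the comparison in the question of how folliculin regulates browning, in which white fat acquires thermogenic traits. The sources used here name no strain, age, sex, treatment or Cre driver, and do not say whether a library holds 1 animal or a pool. P-values therefore measure only the spread between these libraries, which may be technical.

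Autophagy encloses part of the cytoplasm in a double membrane and delivers it to the lysosome. The ULK1 kinase complex starts the process, the lipid kinase complex around Beclin 1 marks the membrane where it begins, and a pair of ubiquitin-like conjugation systems attach proteins of the ATG8 family (LC3 and GABARAP) to that membrane. Cargo receptors bind both the ATG8 proteins and the material to be removed, and mitophagy receptors do so from the mitochondrial surface. mTORC1 restrains the ULK1 complex by phosphorylation, and it holds the transcription factors TFEB and TFE3, which can activate genes of autophagy and lysosomes, in the cytoplasm. Folliculin belongs to the mTORC1 side of that control. In white fat, loss of autophagy genes in mice is known to alter adipocyte differentiation, and mitophagy is known to accompany the return of beige to white adipocytes.

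TFEB and TFE3 bind E-boxes with the core CACGTG, so the start regions of the genes were read for that core, and the stretches that hold it are shown here. Of the 32 genes, 24 had a start region in the RefSeq table of build GRCm38.p6, and 4 of these held CACGTG in the 250 bases before the start, against 6.86% of the 27025 genes in that table. The core reads the same on both strands. Capitals mark it in each 30-base stretch, given with its place in that build.
Atg3 first E-box (chr16:45158723-45158752, plus strand): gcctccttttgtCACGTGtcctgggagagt
Atg3 second E-box (chr16:45158746-45158775, plus strand): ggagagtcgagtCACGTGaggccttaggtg
Atg5 (chr10:44268309-44268338, plus strand): agggcggagcgcttgcCACGTGgtcttggt
Atg7 (chr6:114670952-114670981, plus strand): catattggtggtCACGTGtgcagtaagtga
Bnip3 (chr7:138909597-138909626, minus strand): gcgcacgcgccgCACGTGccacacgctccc
The cores began 94 and 71 bases before the start of Atg3, 14 before that of Atg5, 132 before that of Atg7 and 108 before that of Bnip3. The Atg7 start in this table lies 27969 bases inside the outer start of the gene, so its stretch belongs to an inner start and not to the one at the gene's edge. The second Atg3 core was part of TCACGTGA, a longer form of the same box, which was found in 1 of the 24 regions and in 0.907% of all genes. TNAAGGTCA, the element of the oestrogen-related receptors searched on both strands, was in 0 of the 24 regions and in 1.3% of all genes.

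The 4 libraries had been brought to nearly equal distributions of log2 values before deposit, and their sequencing depth is unknown. Over all genes, 2 libraries differed by a median of 0.247 within FLCNKO and 0.147 within WT on the log2 scale, and by 0.268 to 0.307 across the groups. Flcn did not separate the groups, with log2 values of 12.35 and 12.12 in the FLCNKO libraries and 12.36 and 12.21 in the WT libraries (limma log2 fold change -0.05 ± 0.13, SE, adjusted p = 0.852). Which exons were deleted is not stated, so this value does not check the labels, and the groups are called by them. All 5 mature adipocyte markers were present, with a lowest value of 15.91. Skeletal muscle markers differed most between single libraries, with a median of 12.53 and 5.11 in the FLCNKO libraries and 13.66 and 10.76 in the WT libraries. Brown or beige adipocyte markers had medians of 13.79 and 12.19 in FLCNKO and 10.59 and 8.72 in WT, and 1 of 5 passed the test as higher (limma adjusted p under 0.05). Macrophage markers had medians of 13.67 and 13.52 in FLCNKO and 14.57 and 14.18 in WT, with 2 of 10 lower. Fibroblast markers had 15.42 and 15.41 in FLCNKO and 16.82 and 16.62 in WT, with 4 of 8 lower. Of all genes, 0.98% passed as higher and 0.614% as lower.

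Most genes of the autophagy machinery had small log2 fold changes, and Atg7 had the largest. Of the 32 genes, 1 was higher and 0 were lower in FLCNKO past the threshold (limma, adjusted p under 0.05 over all 13677 genes), or 3.12% called in either direction. Over all genes 0.98% were higher and 0.614% lower, 1.59% together. With an unadjusted p under 0.05, 6 of the 32 were higher and 1 lower, against 12.1% and 10.3% of all genes. In 16 of the 32 genes both FLCNKO libraries were above both WT libraries and in 3 both were below, against 29.2% and 25.4% of all genes, and in 13 the groups overlapped. The median log2 fold change was 0.13, against 0.00 over all genes, and 26 of the 32 lay within 0.5 of 0. These genes also varied little between replicates: the median difference between the 2 libraries of a group was 0.13 in FLCNKO and 0.09 in WT, against 0.25 and 0.15 over all genes. Their median level was higher than that of all genes (12.16 against 10.75 on the deposited log2 scale, which is not per length).

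**Figure D1:**
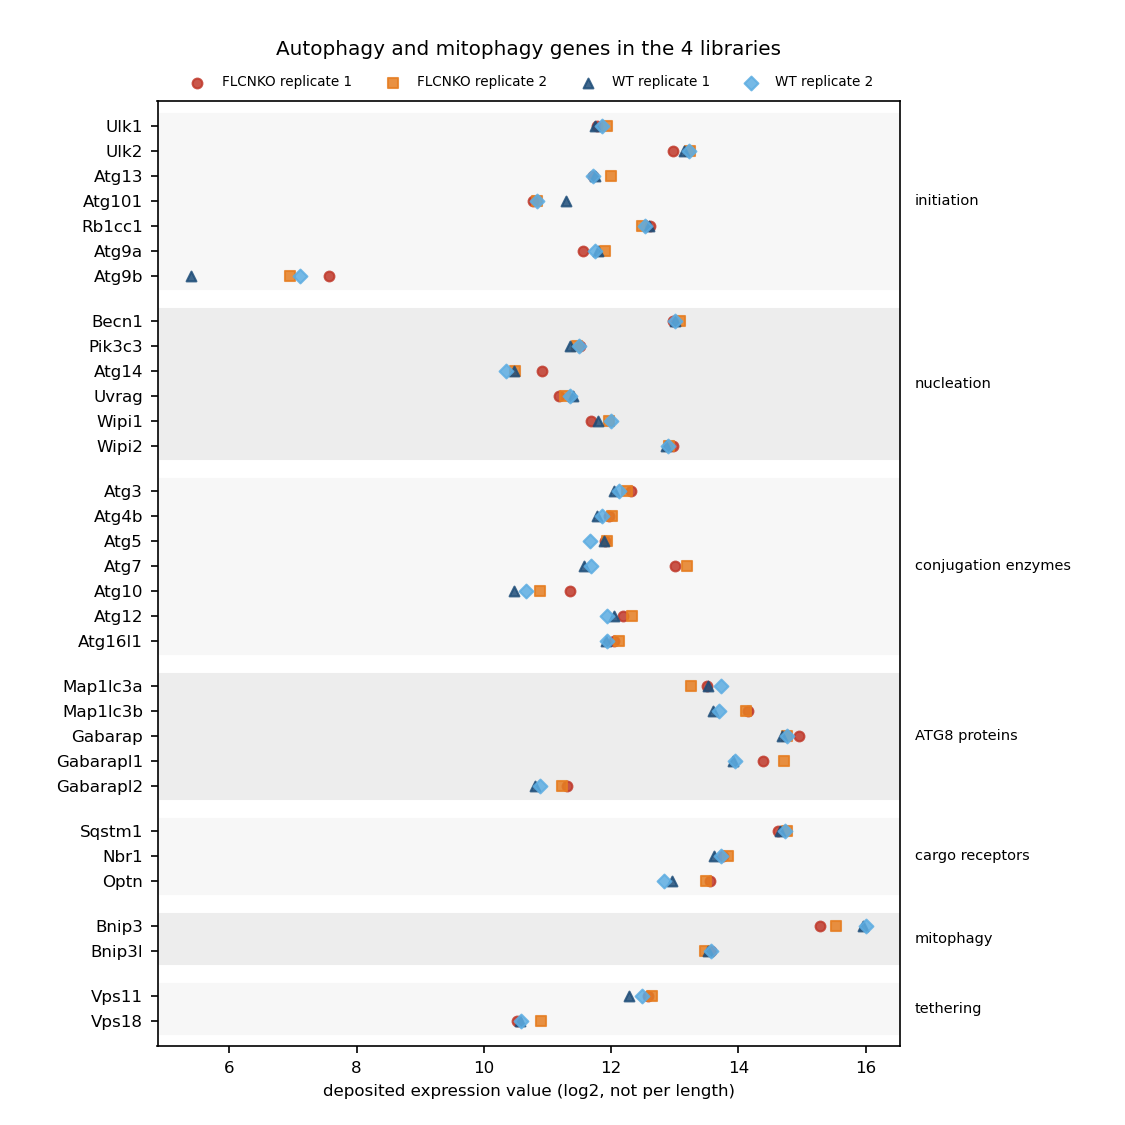
Deposited log2 value (x axis, not per length) of each of the 32 genes (rows, grouped by step) in the 2 FLCNKO libraries and the 2 WT libraries, one point per library. The FLCNKO points of Atg7, at 13.00 and 13.19, lie apart from the WT points at 11.57 and 11.68, while most rows have points close together, and Atg9b has the widest row.

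The conjugation enzymes held the 1 gene that passed. Atg7, the E1-like enzyme that activates both ATG12 and the ATG8 proteins, had log2 values of 13.00 and 13.19 in the FLCNKO libraries, against 11.57 and 11.68 in the WT libraries. The gap between the groups was larger than the difference between replicates in either. Atg7 rose by 1.47 ± 0.12 in log2 units (SE, n = 2 per group; 95% interval 1.16 to 1.78; limma adjusted p = 0.0336), a 2.77-fold change. In bulk tissue, a change in the number of cells of a type and one in their RNA per cell cannot be told apart. Of its 31-base stretches 0.153% were found in transcripts of another gene, and 0% of its exon bases were overlapped. The Atg7 call was lost without FLCNKO replicate 1 (log2 fold change 1.57, adjusted p = 0.103), without FLCNKO replicate 2 (1.37, 0.0615), without WT replicate 1 (1.41, 0.229) and without WT replicate 2 (1.52, 0.246), fits in which limma called 0 of all genes (1395 to 3455 at an unadjusted p under 0.05). Without the mean-variance trend its adjusted p was 0.14.

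The other conjugation enzymes had smaller differences in the same direction, and none passed. Atg10, the E2-like enzyme that joins ATG12 to ATG5, had log2 values of 11.35 and 10.88 in FLCNKO and 10.48 and 10.66 in WT (log2 fold change 0.54 ± 0.20, SE; limma adjusted p = 0.198). Its FLCNKO libraries differed by almost as much as the groups did. Atg3, the E2-like enzyme of the ATG8 proteins, had 12.32 and 12.25 in FLCNKO and 12.04 and 12.13 in WT (0.20 ± 0.11), and Atg4b, the protease that matures and releases ATG8 proteins, had 11.96 and 12.01 in FLCNKO and 11.77 and 11.85 in WT (0.17 ± 0.11). The ubiquitin-like Atg12 had a log2 fold change of 0.26 ± 0.12, its partner Atg5 one of 0.14 ± 0.13 and Atg16l1, which places their conjugate on the membrane, one of 0.15 ± 0.11. In all 7 enzymes both FLCNKO libraries were above both WT libraries, for Atg5 by a narrow margin (11.90 and 11.93 in FLCNKO, 11.89 and 11.66 in WT), against 29.2% of all genes. The median of the 7 log2 fold changes was 0.20, and 2 of 7 were higher at an unadjusted p under 0.05, against 12.1% of all genes.

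Among the ATG8 proteins themselves, limma called 0 of 5, against 1.59% of all genes. At an unadjusted p under 0.05, 3 of 5 were higher, against 12.1% of all genes. Map1lc3b, the LC3 form most used to follow autophagosomes, had log2 values of 14.15 and 14.12 in FLCNKO and 13.60 and 13.70 in WT. Its log2 fold change was 0.48 ± 0.10 (SE; 95% interval 0.21 to 0.74; limma adjusted p = 0.0868). Gabarapl1, a GABARAP-type member, had 14.39 and 14.71 in FLCNKO and 13.91 and 13.94 in WT, a log2 fold change of 0.63 ± 0.14 (95% interval 0.27 to 0.99; limma adjusted p = 0.0893). In both genes the groups did not overlap, and neither passed the threshold. Gabarapl2, which also acts in Golgi transport, had 11.31 and 11.22 in FLCNKO and 10.80 and 10.88 in WT (0.43 ± 0.12, limma adjusted p = 0.126).

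The remaining members had smaller log2 fold changes, negative for Map1lc3a and positive for Gabarap, and differences between members were not tested. Map1lc3a, the LC3 form from a separate gene, had 13.50 and 13.26 in FLCNKO and 13.52 and 13.73 in WT, so that FLCNKO replicate 1 and WT replicate 1 were nearly equal (log2 fold change -0.24 ± 0.14, SE; limma adjusted p = 0.378). Gabarap, the founding member of its branch, had 14.95 and 14.77 in FLCNKO and 14.68 and 14.77 in WT, so that FLCNKO replicate 2 lay above WT replicate 2 by less than the printed digits show (0.13 ± 0.12, limma adjusted p = 0.569). Per kilobase of annotated exon, mean log2 levels in FLCNKO ran from Gabarap (13.98) over Gabarapl1 (13.54), Map1lc3a (13.14) and Map1lc3b (11.22) to Gabarapl2 (10.04). In WT the same log2 levels per kilobase were 13.84 for Gabarap, 13.38 for Map1lc3a, 12.91 for Gabarapl1, 10.74 for Map1lc3b and 9.62 for Gabarapl2, so that Gabarapl1 and Map1lc3a stood in the opposite order. These levels depend on the exon lengths of an annotation that is not the authors'. Reads of 3 members may be shared: 25.2% of the 31-base stretches of Gabarapl1, 15.3% of those of Gabarapl2 and 8.64% of those of Map1lc3b recur in other genes' transcripts, and 28.3% of the exon bases of Gabarapl1 lie opposite 1700101I11Rik, so those genes are uncertain to that extent.

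**Figure D2:**
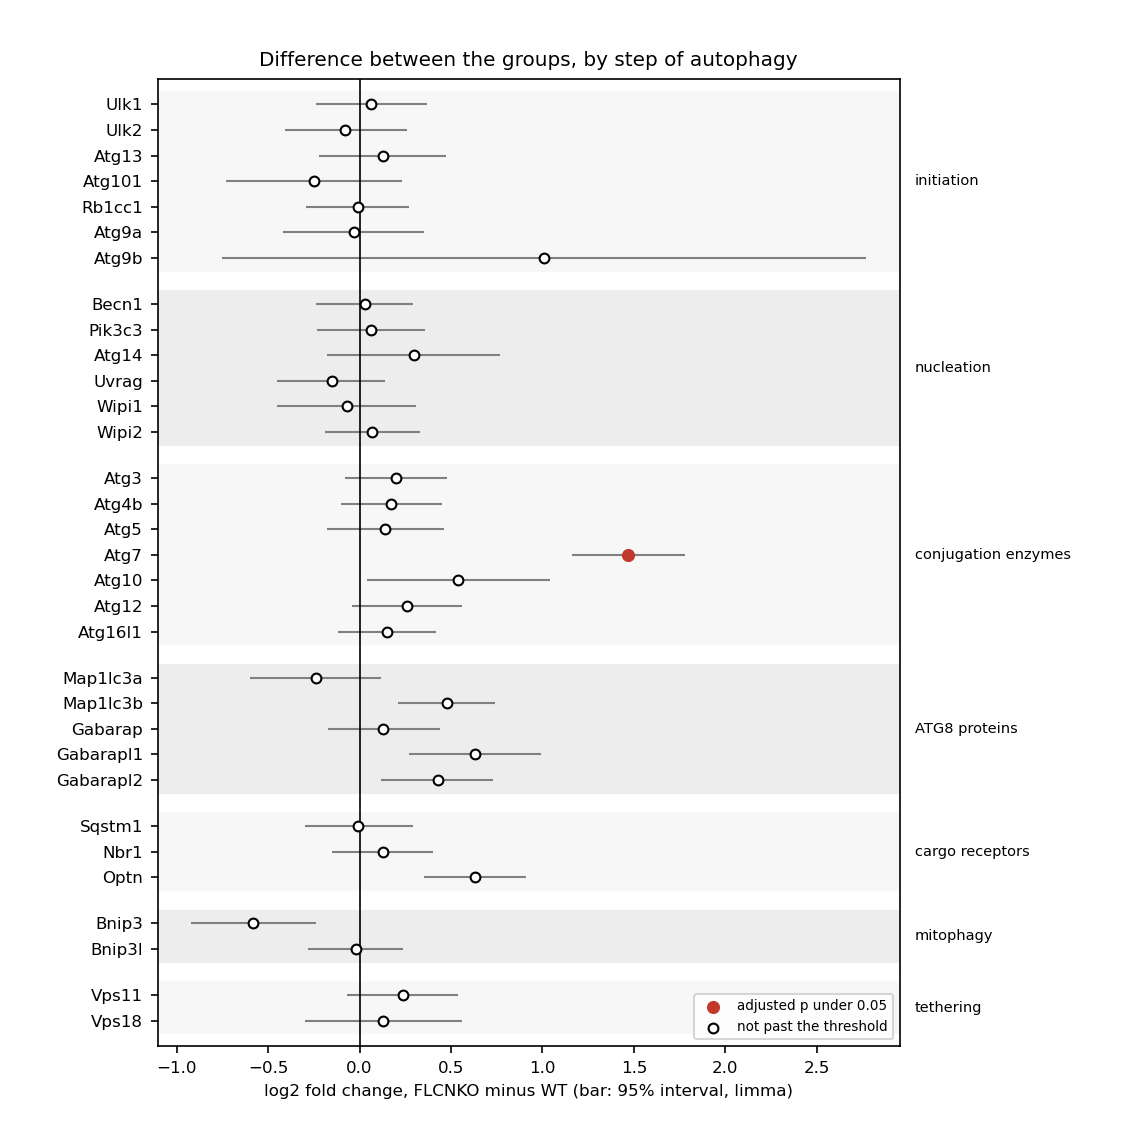
Log2 fold change, FLCNKO minus WT (x axis), of each of the 32 genes with its 95% interval from limma, grouped by step, with a filled point where the adjusted p was under 0.05. Atg7 at 1.47 is the 1 filled point, the 7 conjugation enzymes all lie right of 0, and Atg9b has the widest interval, from -0.75 to 2.77.

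The initiation genes gave no call. For them limma called 0 of 7 over all genes, and 0 of 7 had an unadjusted p under 0.05. The groups overlapped in all 7, and the median log2 fold change was -0.01. Over all genes 1.59% were called, 12.1% were higher and 10.3% lower at that p, and the groups overlapped in 6205 of 13677. Ulk1, the kinase that mTORC1 phosphorylates, had log2 values of 11.78 and 11.93 in FLCNKO and 11.74 and 11.85 in WT (0.06 ± 0.12, SE), a 95% interval from -0.24 to 0.37. Its relative Ulk2 had 12.97 and 13.24 in FLCNKO and 13.14 and 13.22 in WT (-0.08 ± 0.13). For the scaffold subunits of the kinase complex, the log2 fold changes were 0.13 ± 0.13 for Atg13 and -0.01 ± 0.11 for Rb1cc1, which encodes FIP200. Atg101, which stabilises ATG13, had 10.77 and 10.84 in FLCNKO and 11.29 and 10.83 in WT. Here WT replicate 1 alone was high (log2 fold change -0.25 ± 0.19, limma adjusted p = 0.488).

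ATG9, a membrane protein that carries lipid to the growing membrane, is encoded by a widely used and a more restricted gene. Atg9a had log2 values of 11.56 and 11.90 in FLCNKO and 11.79 and 11.74 in WT (-0.03 ± 0.15, SE), with 32.6% of its exon bases overlapped by Gm29253 and Ankzf1. Atg9b, the restricted form, had the lowest values of the 32 genes, with 7.57 and 6.95 in FLCNKO and 5.40 and 7.11 in WT. WT replicate 2 lay between the FLCNKO libraries, and the difference between the WT libraries, 1.71, exceeded that between the groups (log2 fold change 1.01 ± 0.69; limma adjusted p = 0.451).

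At the nucleation step limma called 0 of 6 genes, with 0 of 6 at an unadjusted p under 0.05. Over all genes 1.59% were called, and 12.1% were higher and 10.3% lower at that p. The median log2 fold change of the step was 0.04. Becn1, the Beclin 1 gene, had log2 values of 12.98 and 13.08 in FLCNKO and 13.01 and 13.00 in WT (0.03 ± 0.10, SE; 95% interval -0.24 to 0.29), although 43.9% of its exon bases lie opposite Cntd1. Pik3c3, the catalytic lipid kinase VPS34, had 11.51 and 11.46 in FLCNKO and 11.36 and 11.49 in WT (0.06 ± 0.12). In both genes the groups overlapped. Atg14, the subunit that directs the complex to autophagosome formation, had 10.92 and 10.49 in FLCNKO and 10.48 and 10.34 in WT, where FLCNKO replicate 1 alone was high (0.30 ± 0.19, limma adjusted p = 0.415). Uvrag, the alternative subunit that directs it to endosomes, had 11.18 and 11.28 in FLCNKO and 11.40 and 11.36 in WT (-0.15 ± 0.11, limma adjusted p = 0.489), with 17.6% of its exon bases opposite Gm45187. The difference between the Atg14 and Uvrag changes was not tested. The lipid-binding effectors had log2 fold changes of -0.07 ± 0.15 for Wipi1 and 0.07 ± 0.10 for Wipi2, the one that recruits ATG16L1.

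Of the cargo receptors, limma called 0 of 3, against 1.59% of all genes. At an unadjusted p under 0.05, 1 of 3 was higher, against 12.1% of all genes. That gene was Optn, which encodes optineurin, a receptor for ubiquitin-tagged mitochondria and bacteria. Its log2 values were 13.55 and 13.49 in FLCNKO and 12.96 and 12.83 in WT, so the groups did not overlap. The log2 fold change of Optn was 0.63 ± 0.11 (SE; 95% interval 0.35 to 0.91; limma adjusted p = 0.0622). Sqstm1, which encodes p62, the receptor of ubiquitinated aggregates, overlapped between the groups, with 14.62 and 14.76 in FLCNKO and 14.65 and 14.74 in WT (-0.01 ± 0.11; 95% interval -0.30 to 0.29), and 17.3% of its exon bases lie opposite Mrnip. Nbr1, a p62-like receptor, had 13.76 and 13.84 in FLCNKO and 13.62 and 13.72 in WT (0.13 ± 0.11). The adjusted p-values of Sqstm1 and Nbr1 were 0.981 and 0.546.

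The mitophagy receptors of the list gave the lowest log2 fold change of all 32 genes. Bnip3, a receptor in the outer mitochondrial membrane that hypoxia induces, had log2 values of 15.29 and 15.53 in FLCNKO and 15.96 and 16.01 in WT. Both FLCNKO libraries were below both WT libraries, by more than the difference between replicates. The log2 fold change of Bnip3 was -0.58 ± 0.13 (SE; 95% interval -0.92 to -0.24), 0.67 of the WT level, and it did not pass (limma adjusted p = 0.0937). Bnip3 is uncertain because 57% of its 31-base stretches recur in other genes' transcripts, and 22.3% of its exon bases lie opposite Gm45507. Bnip3l, its relative also called NIX, had overlapping groups, with 13.57 and 13.48 in FLCNKO and 13.53 and 13.57 in WT (-0.02 ± 0.10; 95% interval -0.28 to 0.24), and shared 23.7% of its stretches with a pseudogene. Of the 2 receptors limma called 0, against 1.59% of all genes. At an unadjusted p under 0.05, 1 was lower, against 10.3% of all genes.

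The last pair encodes core subunits of the complexes that tether endosomes and autophagosomes to lysosomes. Vps11 had log2 values of 12.58 and 12.65 in FLCNKO and 12.28 and 12.48 in WT (0.24 ± 0.12, SE; limma adjusted p = 0.321). Vps18 had 10.52 and 10.90 in FLCNKO and 10.57 and 10.59 in WT, so the groups overlapped (0.13 ± 0.17, limma adjusted p = 0.695). Limma called 0 of the 2, against 1.59% of all genes. An unadjusted p under 0.05 was found for 0 of the 2, against 12.1% higher and 10.3% lower of all genes.

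**Figure D3:**
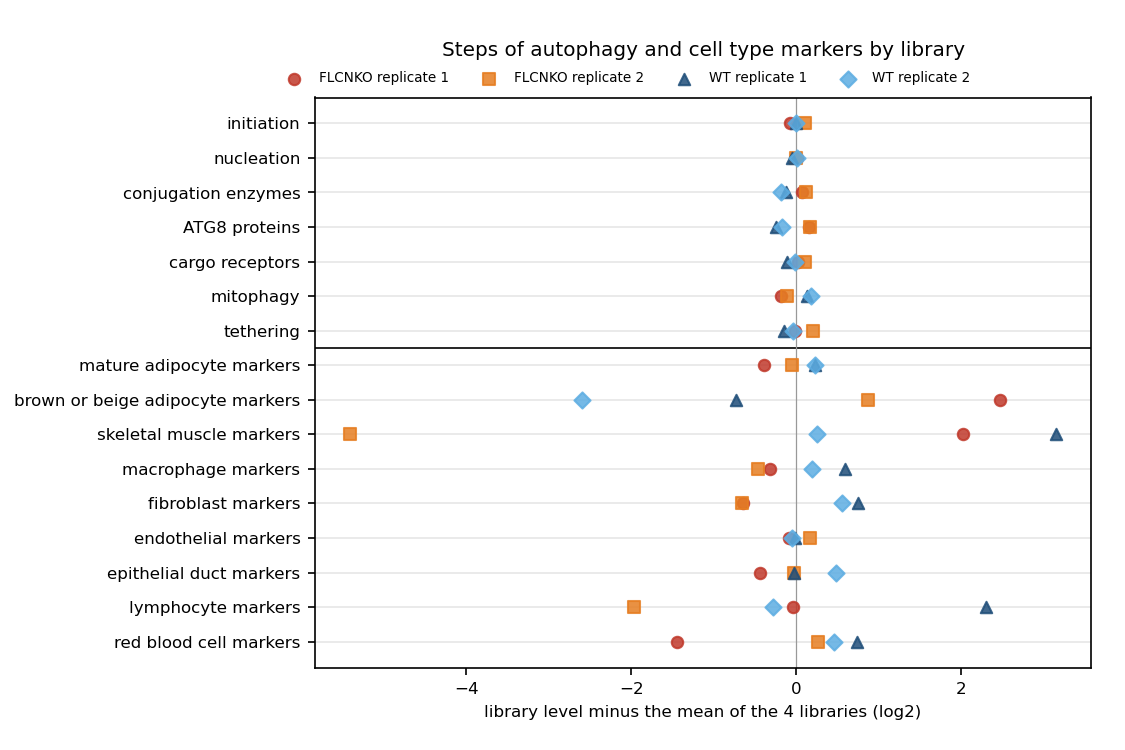
Level of each library minus the mean of the 4 libraries (x axis, log2), as the median over the genes of each autophagy step (upper rows) and as the centred library median of each cell type marker list (lower rows), one point per library. The autophagy steps stay between -0.25 and 0.20, while skeletal muscle markers run from -5.41 in FLCNKO replicate 2 to 3.14 in WT replicate 1.

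Levels of several cell types' markers differed between libraries or groups. Summed over its markers on the linear scale and given as log2, muscle stood at 16.18 and 13.37 in FLCNKO and 17.32 and 14.27 in WT. No muscle gene was called (0 of 10). In FLCNKO replicate 2 that sum was mostly Acta1 (13.32), and the other muscle markers there ran from 3.94 to 6.36. The brown or beige sum was 17.56 and 16.21 in FLCNKO and 14.07 and 13.34 in WT, with 1 of 5 genes higher. Ucp1 overlapped between the groups, with 13.79 and 10.06 in FLCNKO and 10.59 and 7.42 in WT (limma adjusted p = 0.336). In the other markers of that list both FLCNKO libraries were above both WT libraries, against 29.2% of all genes. Over all genes 0.98% were called higher and 0.614% lower. The macrophage sum was 17.03 and 16.76 in FLCNKO and 17.88 and 17.66 in WT, with 2 of 10 genes lower, and the fibroblast sum was 19.00 and 18.87 in FLCNKO and 20.04 and 19.90 in WT, with 4 of 8 lower. In every macrophage and every fibroblast marker both FLCNKO libraries were below both WT libraries, against 25.4% of all genes. The lowest value of any marker was 3.94 for muscle, 11.06 for macrophages and 12.52 for fibroblasts. Of the other marker lists limma called 0 of 5 mature adipocyte, 0 of 5 endothelial, 0 of 6 lymphocyte and 0 of 3 red blood cell genes. For epithelial ducts, 1 of 3 measured genes was lower. The lymphocyte medians were 8.63 and 6.70 in FLCNKO and 10.96 and 8.38 in WT, with a median log2 fold change of -1.32. Within that list Cd3e (0.60) and Cd3g (0.05) had positive log2 fold changes. The part of these markers in the differences of Atg7, Map1lc3b, Gabarapl1, Optn and Bnip3 was not tested.

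The wider pathway also held 1 call. Of 60 further autophagy genes listed, 59 had a value, and 1 was higher and 0 lower past the threshold (limma), 1.69% against 1.59% of all genes. With an unadjusted p under 0.05, 12 were higher and 2 lower, against 12.1% and 10.3% of all genes. Both FLCNKO libraries were above both WT libraries in 27 of the 59 and below in 8, against 29.2% and 25.4% of all genes, and the median log2 fold change was 0.09. The gene that passed was Tecpr1, which encodes a protein that binds the ATG12-ATG5 conjugate and takes part in joining autophagosomes to lysosomes. Its log2 values were 13.70 and 13.65 in FLCNKO and 12.42 and 12.57 in WT. Tecpr1 rose by 1.18 ± 0.11 (SE, n = 2 per group; 95% interval 0.90 to 1.46; limma adjusted p = 0.0336), a 2.26-fold change. Like Atg7, it lost the call without any 1 library: its log2 fold change was 1.15 without FLCNKO replicate 1, 1.20 without FLCNKO replicate 2, 1.10 without WT replicate 1 and 1.25 without WT replicate 2, with adjusted p-values of 0.103, 0.0631, 0.258 and 0.246.

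The 250 bases before the start of Tecpr1 (RefSeq, GRCm38.p6, chr5:144223616-144223865, minus strand) are shown as the region of the called gene outside the list, and those of Bnip3 (chr7:138909507-138909756, minus strand) as the region of the lowest fold change within it. Capitals mark CACGTG, which is in the second and not in the first.
Tecpr1: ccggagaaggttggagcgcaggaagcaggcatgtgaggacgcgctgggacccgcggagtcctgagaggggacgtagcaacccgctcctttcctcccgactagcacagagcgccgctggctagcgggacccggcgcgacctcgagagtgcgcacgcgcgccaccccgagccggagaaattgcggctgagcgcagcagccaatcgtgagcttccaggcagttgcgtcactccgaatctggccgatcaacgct
Bnip3: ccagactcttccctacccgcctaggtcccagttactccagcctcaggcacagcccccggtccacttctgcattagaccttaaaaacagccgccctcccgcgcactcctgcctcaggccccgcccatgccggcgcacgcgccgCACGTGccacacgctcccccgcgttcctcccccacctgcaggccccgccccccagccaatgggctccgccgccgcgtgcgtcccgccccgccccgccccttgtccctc
Of the bases in these regions, 66.8% in Tecpr1 and 72.4% in Bnip3 were G or C. Among the 53 further autophagy genes with a region in the table, 7 held CACGTG and 4 of these TCACGTGA.

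Among the further mitophagy genes limma called 0 of 14, against 1.59% of all genes. At an unadjusted p under 0.05, 7 were higher and 0 lower, against 12.1% and 10.3% of all genes. The median log2 fold change was 0.28. Mul1, a ubiquitin ligase of the outer mitochondrial membrane, had log2 values of 11.68 and 11.67 in FLCNKO and 11.17 and 11.15 in WT (0.51 ± 0.11, SE; limma adjusted p = 0.0825). Bcl2l13, a mitophagy receptor, had 13.68 and 13.79 in FLCNKO and 13.32 and 13.24 in WT (0.46 ± 0.11, limma adjusted p = 0.0989). Both were higher in each FLCNKO library than in each WT library. The other genes higher at that level were Phb2 (0.51), Nipsnap2 (0.47), Mfn2 (0.41), Pgam5 (0.33) and Rhot1 (0.31). The part of the cell type markers, among them those of brown or beige adipocytes, in the differences of these 7 genes was not tested. Fundc1 (0.24) had overlapping groups. Of the 14 log2 fold changes 11 were above 0, against 50.4% of all genes. The 3 below 0 were those of Fkbp8 (-0.23), March5 (-0.17) and Nipsnap1 (-0.13). Pink1, the kinase of damage-induced mitophagy, is named here after its values were seen. It had 14.04 and 14.24 in FLCNKO and 14.08 and 14.04 in WT (0.08 ± 0.12), so the groups overlapped.

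In the other steps of the wider pathway limma called 0 genes outside the conjugation group, against 1.59% of all genes. Over all genes 12.1% were higher and 10.3% lower at an unadjusted p under 0.05. Of 11 tethering and fusion genes 2 were higher at an unadjusted p under 0.05, Vps33a, a tethering subunit (0.35 ± 0.11, SE; limma adjusted p = 0.149), and Plekhm1, an adaptor of late endosomes (0.43 ± 0.16, limma adjusted p = 0.204), and the median log2 fold change was 0.25. Of 6 further initiation genes 1 was lower at that level, Vmp1, a lipid scramblase of the endoplasmic reticulum, with 13.30 and 13.15 in FLCNKO and 13.56 and 13.87 in WT (-0.49 ± 0.15, limma adjusted p = 0.144), and Tmem41b, a scramblase that acts with it, had a log2 fold change of 0.34 ± 0.15. Of 11 further nucleation genes 1 was higher, Zfyve1 (0.37 ± 0.12, limma adjusted p = 0.173), while Bcl2l1, an inhibitor of Beclin 1, had a log2 fold change of -0.35 ± 0.17. Of 10 further cargo receptor genes 1 was higher, Tollip (0.27 ± 0.10, limma adjusted p = 0.208), and Ncoa4, the receptor of ferritin, had a log2 fold change of 0.31 ± 0.13. Tecpr2, a relative of Tecpr1, had one of 0.35 ± 0.15. Trp53inp2, which binds ATG8 proteins, had 15.77 and 16.03 in FLCNKO and 16.25 and 16.34 in WT (-0.40 ± 0.14, limma adjusted p = 0.196).

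**Figure D4:**
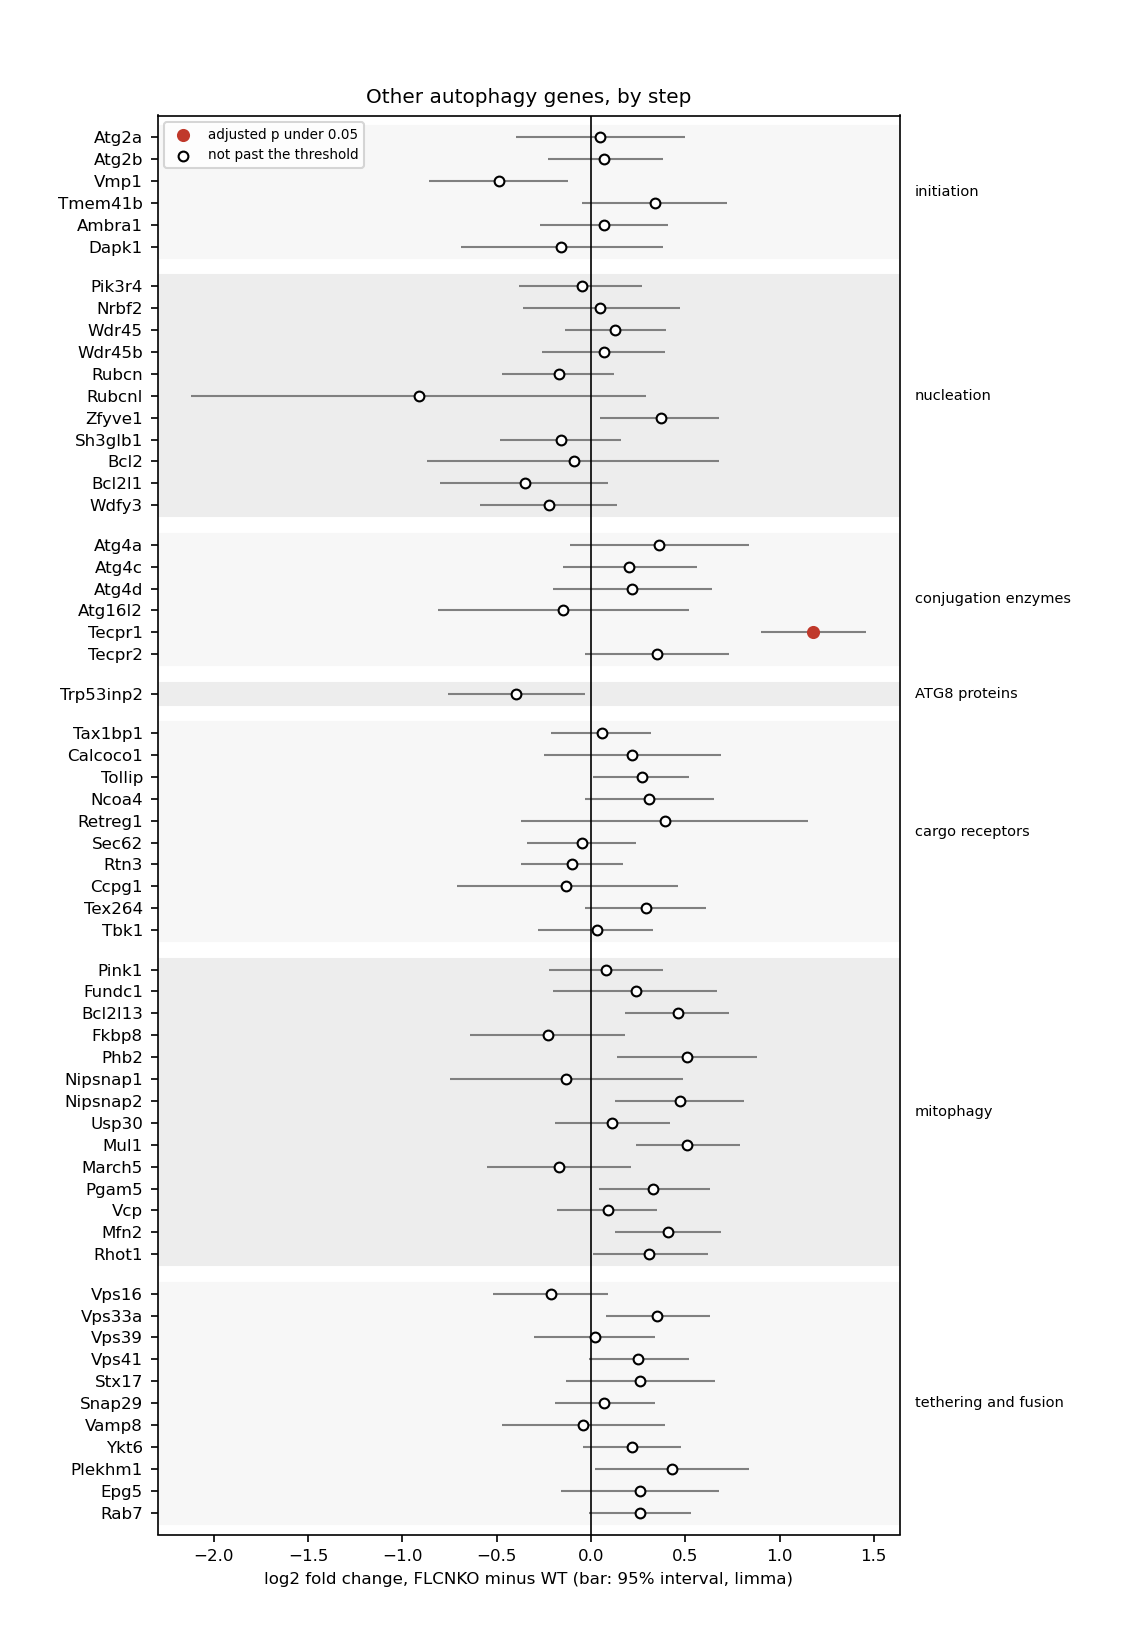
Log2 fold change, FLCNKO minus WT (x axis), of the 59 further autophagy genes with 95% intervals from limma, grouped by step, with a filled point where the adjusted p was under 0.05. Tecpr1 at 1.18 is the 1 filled point, and 11 of the 14 mitophagy genes lie right of 0, against 50.4% of all genes.

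**Figure D5:**
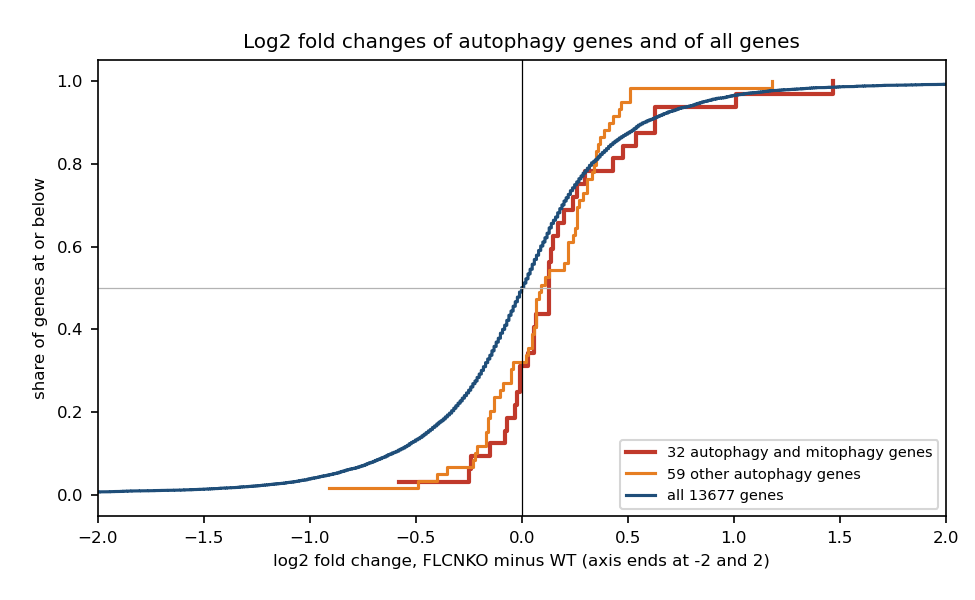
Share of genes (y axis) at or below each log2 fold change, FLCNKO minus WT (x axis, drawn from -2 to 2), for the 32 autophagy and mitophagy genes, the 59 further autophagy genes and all 13677 genes. The 2 autophagy curves cross the middle of the y axis at 0.13 and 0.09, against 0.00 for all genes, and 68.8% of the 32 and 67.8% of the 59 genes lie above 0, against 50.4% of all genes.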

How the data were processed

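Per the labels' protocols, RNA was extracted from inguinal fat with Trizol and columns and sequenced on standard Illumina libraries. The authors deposited 1 table per library of log2 expression values for 13677 Ensembl genes. Per the submitters' processing notes, STAR and limma were used (no versions) with build mm9. Annotation, counting program and strandedness were not given in the sources used here. Deposited log2 values were nearly equally distributed (highest value 21.66 in every library, medians 10.7636 to 10.7645), which hides any change common to most genes. No depth can be read from them, so counting error is not given.

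By Ensembl identifier, 13592 genes had a symbol. Groups were compared with limma 3.58.1 (R 4.3.3) on the deposited log2 values, with group as the only term, variances moderated with a trend (residual degrees of freedom 2, prior 3.09), two-sided tests and Benjamini-Hochberg adjustment over all genes without a filter. The fit was also run on data simulated from its own means and variances, which cannot test whether that variance model holds for these libraries. Shared sequence (31-base stretches, both strands), exon overlap and length came from GENCODE annotation of build GRCm38, not the authors' build. Named were Flcn, all 32 genes, and of the further list those past the threshold and the 2 per step with the smallest p. Other mitophagy genes of that list and single marker genes were named after their values were seen. One gene of the further list is not reported here. The genes and lists were chosen with earlier results of these data known. Alternatives were other variance moderation, array weights, a replicate block, repeated normalization, centring, filters and leaving out each library. Figures were drawn with matplotlib 3.10.9.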

Additional observations from a re-analysis of the deposited data

How the results depend on the processing

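Atg7 and Tecpr1 both lost the call without the mean-variance trend (adjusted p = 0.14), where limma called 0 higher and 0 lower of all genes (2702 at an unadjusted p under 0.05), against 134 and 84. The number of listed genes called higher was then 0, and that of further autophagy genes 0. Robust moderation gave 201 higher and 143 lower genes, keeping genes with a mean from 8 upwards gave 187 higher and 138 lower, and from 10 upwards 207 higher and 174 lower. With the replicate block limma called 401 higher and 441 lower genes and 2 of the 32 listed genes, Atg7 and Optn (adjusted p = 0.0472). No label ties equal replicate numbers to a shared animal or day, and the deviations of same-numbered libraries from their group means correlated at 0.36 across genes, so the block is a hint only. When 1 library was left out, the calls over all genes ranged from 0 to 0 in either direction, and so did those of the 32 and of the 59 genes. Such fits have 1 residual degree of freedom. The median of the 32 genes ran from 0.10 to 0.14.

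Signs turned in those fits for 10 of the 32 genes and for Pink1 and Flcn, none of them called. The range of log2 fold change was -0.17 to 0.06 for Flcn, -0.01 to 0.13 for Ulk1, -0.21 to 0.06 for Ulk2, -0.01 to 0.26 for Atg13, -0.07 to 0.05 for Rb1cc1, -0.20 to 0.13 for Atg9a, -0.02 to 0.08 for Becn1, -0.21 to 0.06 for Wipi1, -0.08 to 0.06 for Sqstm1, -0.07 to 0.02 for Bnip3l, -0.06 to 0.32 for Vps18 and -0.02 to 0.18 for Pink1. With all 4 libraries kept, 418 of 421 values of named genes stayed on their side of the threshold; the exceptions are those of Atg7, Tecpr1 and Optn above. Most of these settings leave the difference of the group means as it is, so an equal direction under them says nothing about stability.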
